A study of Rattus norvegicus with 90 samples.

Results

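Liver transcripts of dams given 10 mg/kg/d of Nafion byproduct 2 (NBP2) were compared with those of control dams at the later of the study's sampled ages. The 6 libraries, out of 90 in the series, were those titled as maternal liver at gestation day (GD) 21 with a dose of 10 (dams 2138, 2139 and 2140) or of 0 (dams 2129, 2130 and 2131). All 9238 genes that passed a low-count filter, out of 20833 in the deposited table, were tested.

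NBP2 is a polyfluorinated ether sulfonic acid, one of the per- and polyfluoroalkyl substances. The dams were Sprague-Dawley rats of the stock Crl:CD(SD), mated on known days and about 90 days old when bought, each housed alone and assigned at random within weight ranks. Dosing was oral, from GD17 to GD21, and the rats were killed 2 to 4 h after the last dose. The age entry and the design text call this age GD20. Control dams carry a dose of 0, and what they were given in its place is not stated. Every dam, treated or control, was pregnant, of study block 144, and gave 1 piece of liver of 30 to 50 mg and 1 library. RNA was read by TempO-Seq, in which a pair of detector probes is ligated side by side on a transcript and the product is sequenced, so each gene is seen at its probe site alone. Other maternal GD21 dams received 1, 3 or 30 mg/kg/d, with 3 dams at each dose. At GD18, after dosing from GD14, 4 dams had received 10 mg/kg/d and 6 were controls.

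The liver senses foreign compounds through nuclear receptors. The constitutive androstane receptor (CAR) and the pregnane X receptor (PXR) pair with the retinoid X receptor and switch on cytochrome P450, conjugation and transport genes, with the Cyp2b and Cyp3a genes as their usual readouts. The fatty acid receptor PPAR-alpha, a known target of many perfluorinated acids in rodent liver, switches on Cyp4a genes, acyl-CoA thioesterases and the enzymes of peroxisomal and mitochondrial beta-oxidation.

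Library totals ran from 5096140 to 6232269 estimated counts, with 12261 to 12790 genes counted. Summed hepatocyte markers took 46900 to 61800 CPM (estimated counts scaled to an equal library total) in control libraries and 48600 to 54100 CPM in treated ones. Markers of other liver cells overlapped between the groups in summed level, for macrophages at 775 to 1170 CPM in controls and 756 to 1050 CPM in treated dams. Krt7 and Cftr of the bile duct list, Lum of the fibroblast list, Cd8a of the T cell list, Pax5 and Mzb1 of the B cell list, and Mpo, Elane and Csf3r of the neutrophil list were at 0 in all 6 libraries. Control dam 2130 stood apart in acute phase transcripts. Values of named genes that rest largely on it are given with and without it, while medians of gene lists keep it. In a bulk sample, fewer cells of a type and less RNA per cell cannot be told apart.

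At 10 mg/kg/d a handful of transcripts rose steeply, 3 of them P450 genes known as CAR and PXR targets. Cyp2b1, Cyp2b2, Cyp3a23/3a1, the gene model AABR07035374.1 and Dhrs7l1 passed an adjusted p of 0.05, and each was several times higher in every treated dam than in any control. These were 5 of 9238 genes, or 0.0541% called, all 5 higher and 0 lower, by edgeR's quasi-likelihood test with Benjamini-Hochberg adjustment. At an unadjusted p under 0.05 there were 300 genes (3.25%), 174 higher (1.88%) and 126 lower (1.36%). DESeq2, run without the low-count filter and so on a wider set of genes, called 7 genes, 7 higher and 0 lower, the same 5 with Aldh1a1 and Nfs1. Adjusted p left a wide gap between called genes, at most 0.0161, and the rest, at least 0.578. The median log2 fold change over all genes was -0.000219. All 3 treated libraries lay above all 3 controls for 723 genes (7.83%) and below them for 248 (2.68%). With library sizes scaled by TMM factors these counts became 499 and 453, so the balance of directions in such orderings depends on the scaling.

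**Figure D1:**
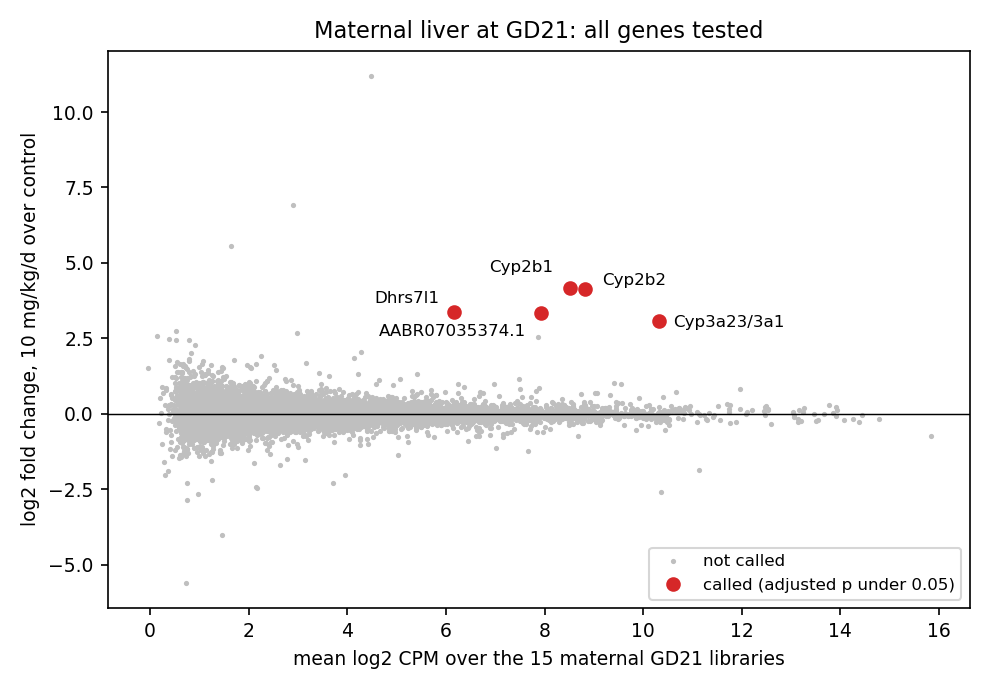
Log2 fold change (10 mg/kg/d over control) of each of the 9238 genes tested, against its mean log2 CPM over the 15 maternal GD21 libraries. The 5 called genes, in red, lie between 3.08 and 4.16, while nearly all others sit close to 0.

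A few uncalled genes had fitted changes as large as these or larger. Nfs1, a cysteine desulfurase of iron-sulfur cluster assembly, was at 0 in all 3 control libraries and at 69.1, 0.172 and 90.4 CPM in dams 2138, 2139 and 2140. Cyp2d5, a P450, was at 0, 0.164 and 0 CPM in controls and 9.72, 0.172 and 20.4 CPM in treated dams. Abhd3, a phospholipase, was at 0, 0 and 0.321 CPM in controls and 10.2, 0 and 9.68 CPM in treated dams. In each of them dam 2139 stayed at the control level while the other 2 treated dams were high. These 3 genes were singled out after their values were seen, and their adjusted p was 1.0 by edgeR.

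Cyp2b1 and Cyp2b2 encode the closely related phenobarbital-inducible P450 enzymes of rat liver, which oxidise drugs and steroids. Cyp2b1 measured 23.7, 18.9 and 19.1 CPM in control dams 2129, 2130 and 2131. In treated dams 2138, 2139 and 2140 it measured 402, 408 and 339 CPM. The treated dams were close to each other and far from every control, with the lowest treated value 14.3 times the highest control. On the log2 scale Cyp2b1 rose by 4.16 ± 0.36 (SE, n = 3 against 3, 95% interval 3.40 to 4.92), with an adjusted p of 3.72e-05. Group means went from 20.6 ± 2.7 to 383 ± 38.3 CPM (mean ± SD), or 18.6-fold.

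Cyp2b2 measured 29.4, 11.6 and 40.4 CPM in controls and 677, 369 and 427 CPM in treated dams. Its spread was wider in both groups, and dam 2138 was the highest of the treated. Cyp2b2 rose by 4.14 ± 0.52 (95% interval 3.03 to 5.25, adjusted p 0.00219), from 27.1 ± 14.5 to 491 ± 163 CPM, with the lowest treated value 9.13 times the highest control. In the count table, on the build rn6, Cyp2b1 lies on chromosome 7 from 99142450 to 99181784 and Cyp2b2 on chromosome 1 from 83103925 to 83119194. RefSeq's GRCr8 table places both on chromosome 1. All estimated counts of both genes in these 6 libraries were fractional, so reads had been divided between near copies, and the share of each copy is uncertain. The bases upstream of their starts are shown to compare the promoters of these co-moving copies; the probe sites, at which they were measured, are not compared. Over 233 aligned bases they share 225 (96.6%), and capitals mark the 8 bases that differ.
Cyp2b1: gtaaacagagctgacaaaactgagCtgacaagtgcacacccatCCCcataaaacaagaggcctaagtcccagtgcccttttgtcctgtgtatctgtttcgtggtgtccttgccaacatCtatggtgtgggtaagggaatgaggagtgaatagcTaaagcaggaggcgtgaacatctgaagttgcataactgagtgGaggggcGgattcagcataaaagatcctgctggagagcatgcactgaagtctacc
Cyp2b2: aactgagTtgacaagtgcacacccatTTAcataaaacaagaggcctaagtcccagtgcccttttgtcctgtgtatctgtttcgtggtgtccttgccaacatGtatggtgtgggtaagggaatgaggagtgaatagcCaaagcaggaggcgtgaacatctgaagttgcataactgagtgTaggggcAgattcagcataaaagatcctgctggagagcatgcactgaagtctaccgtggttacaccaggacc

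Both stretches are the 250 bases before the annotated start, on the plus strand of GRCr8, at chr1:90645869-90646118 and chr1:90722031-90722280. Neither promoter, read from 250 bases before to 50 bases after the start on both strands, held the nuclear receptor core site AGGTCA. Sequence farther from the start was not searched, so sites outside this window are not covered. That site occurs in 16.2% of the 33469 RefSeq promoters of this length. The motifs DR1 and DR4, which are AGGTCA repeated in the same direction with 1 or 4 bases between, contain the core site and occur in 0.0538% and 0.00598% of promoters. Neither was in these windows, nor was the motif ER6, TGAACT then AGGTCA with 6 bases between (0 promoters). ER6 contains the core site too, so the absence of each motif follows from that of AGGTCA and adds nothing.

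Cyp3a23/3a1 encodes a P450 of the steroid- and drug-oxidising 3A family and is the usual rat readout of PXR. Controls measured 157, 147 and 181 CPM, and treated dams 1924, 1152 and 1154 CPM. Dam 2138 was again the highest, and the lowest treated dam was 6.35 times the highest control. Cyp3a23/3a1 rose by 3.08 ± 0.43 (95% interval 2.16 to 4.00, adjusted p 0.00629), from 162 ± 17.8 to 1410 ± 445 CPM. Its call ended when any 1 control dam was left out, at an adjusted p of 0.0909 without dam 2129, 0.0653 without dam 2130 and 0.0673 without dam 2131, with the log2 fold change at 3.03 to 3.16.

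AABR07035374.1 is a gene model with no assigned symbol, a processed transcript on chromosome 12 (rn6) from 11663683 to 11677831. It lies inside the interval of Cyp3a23/3a1, 11655402 to 11733137, on the same strand. Its values were 30.2, 23.4 and 28.5 CPM in controls and 364, 252 and 248 CPM in treated dams, in which dam 2138 was the highest as for Cyp3a23/3a1. The model rose by 3.35 ± 0.36 (adjusted p 3.67e-04). Estimated counts of both were fractional in all 6 libraries, so these 2 rises may not be separate measurements.

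The stretch before the start of Cyp3a23-3a1, as RefSeq writes the symbol, is shown for a pair of AGTTCA sites spaced by 3 bases. It covers chr12:14398804-14399053 of GRCr8 and is printed along the gene's own minus strand, with the repeat in capitals, 144 to 130 bases before the start.
Cyp3a23-3a1: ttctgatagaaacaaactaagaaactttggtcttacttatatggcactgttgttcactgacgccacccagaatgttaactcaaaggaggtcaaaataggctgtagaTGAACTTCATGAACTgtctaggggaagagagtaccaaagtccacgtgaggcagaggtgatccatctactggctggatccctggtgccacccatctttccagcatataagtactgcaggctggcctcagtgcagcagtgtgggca

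The repeat reads AGTTCA, 3 bases, AGTTCA on the other strand, a DR3 of the kind known to bind PXR. It was searched after the data were seen, and 2 of the 33469 promoters hold it (0.00598%). Upstream of it, AGGTCA begins 164 bases before the start. Exact matches to DR1, DR4 or ER6 were absent from this promoter, and near matches were not searched. No binding was measured, and a match is a description of the letters alone. Of the 20 genes named by rule, 15 had a promoter entry.

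Dhrs7l1 encodes a short-chain dehydrogenase of the family that reduces or oxidises steroids and retinoids, and lies on chromosome 6 (rn6) from 95387718 to 95502846. It measured 5.30, 11.5 and 5.13 CPM in controls and 77.8, 58.5 and 107 CPM in treated dams. The lowest treated dam was 5.1 times the highest control, dam 2130. Dhrs7l1 rose by 3.39 ± 0.53 (95% interval 2.27 to 4.50, adjusted p 0.0161). Its call also ended when certain dams were left out, with an adjusted p of 0.221 without control dam 2129, 0.24 without control dam 2131 and 0.0856 without treated dam 2140.

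**Figure D2:**
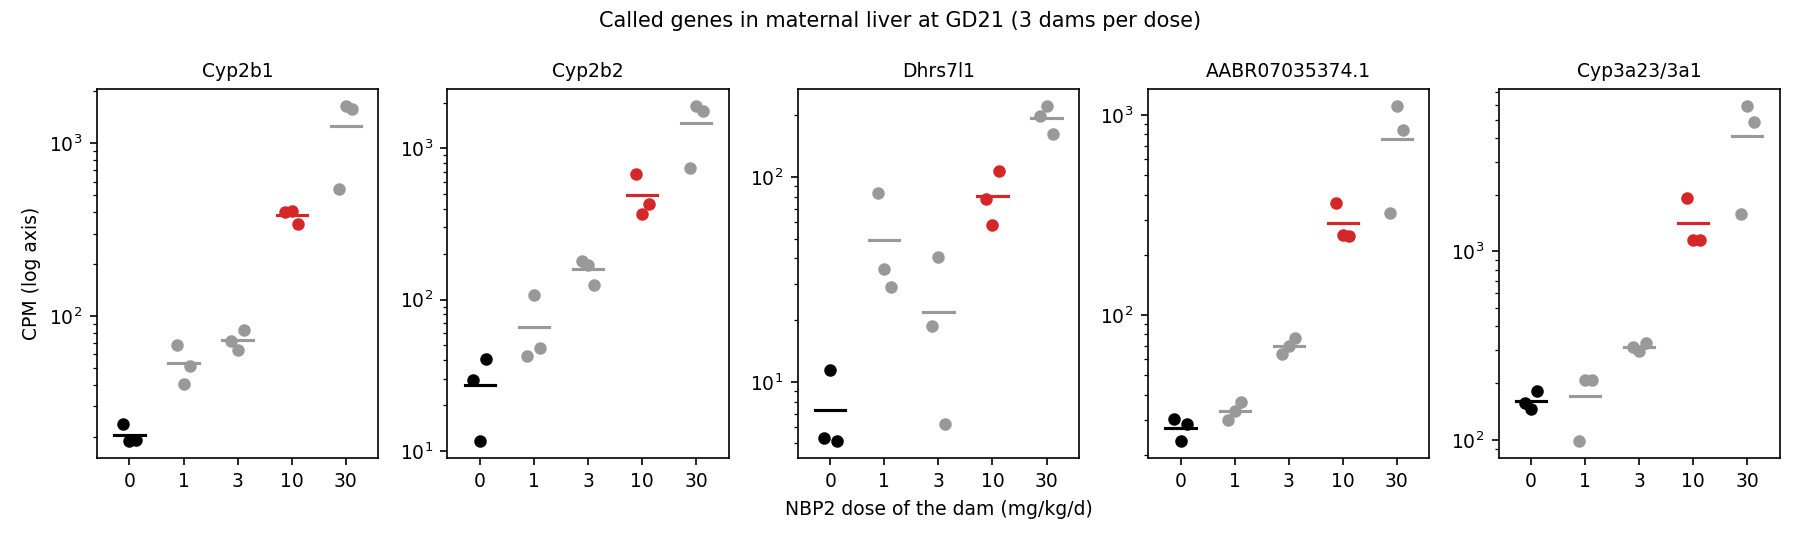
CPM (log axis) of the 5 called genes in each of the 15 maternal GD21 libraries, by dose of the dam. Points are dams and bars are group means; the 3 dams at 10 mg/kg/d, in red, lie above all 3 controls, in black, for every gene.

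The other genes on the list of CAR and PXR targets had mostly positive and far smaller values. Of 30 genes on that list, 20 are in the table and 18 were tested; 3 rose (the P450 genes above), 0 fell and 15 were not called, where 0.0541% of all genes were called. The members' median log2 fold change was 0.82 beside -0.000219 for all genes, and 16 of 18 were positive beside 4612 of 9238. At an unadjusted p under 0.05, 10 members were higher and 1, Cyp2b3, was lower. Over all genes tested, 1.88% were higher and 1.36% lower at that p. The list was drawn up with earlier results of these samples known, so its direction is not independent evidence. Genes of the list described next, other than Aldh1a1 and Ephx1, were named after their values were seen.

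Aldh1a1, a retinaldehyde dehydrogenase, came closest to being called. Controls measured 256, 339 and 395 CPM and treated dams 738, 613 and 738 CPM, without overlap. Its log2 fold change was 1.02 ± 0.23 (95% interval 0.54 to 1.5) with an adjusted p of 0.578 by edgeR, and DESeq2 called it at 0.0273. Ephx1, the microsomal epoxide hydrolase, measured 104, 92.7 and 83.9 CPM in controls and 200, 180 and 137 CPM in treated dams. Its change of 0.83 ± 0.24 did not pass (adjusted p 1.0).

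Conjugation and transport genes of the same list ranged from 0.31 (Ugt1a6, a glucuronosyltransferase) and 0.48 (Abcc2, an exporter of conjugates) to 1.15, and none was called. Gsta2, a glutathione transferase, stood at 0.65 ± 0.24. Gsta5, of the same family, measured 457, 437 and 356 CPM in controls and 922, 544 and 1130 CPM in treated dams (0.99 ± 0.24, adjusted p 0.729). Slco1a4, a carrier of organic anions and bile acids, measured 66.1, 127 and 118 CPM against 197, 248 and 282 CPM (1.15 ± 0.29, adjusted p 0.729). In both Gsta5 and Slco1a4 all treated dams were above all controls. Estimated counts of Gsta2 and Gsta5 were fractional in all 6 libraries, so these 2 may not be separate measurements. Cyp2c6v1, another inducible P450, went from between 2452 and 2665 CPM in controls to between 4324 and 5383 CPM in treated dams (0.81 ± 0.20, adjusted p 0.729). Alas1, the first enzyme of haem synthesis, was low throughout, at 1.18 to 1.64 CPM in controls and 2.22 to 6.37 CPM in treated dams (1.64 ± 0.47).

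Not every member was positive. Cyp2b3, a Cyp2b family member not known to respond to phenobarbital, was on the list all the same. It measured 1396, 1235 and 1144 CPM in controls and 910, 1113 and 945 CPM in treated dams. Its estimated counts, as those of Cyp2b1 and Cyp2b2, were fractional in all 6 libraries. All treated dams were below all controls, with a log2 fold change of -0.41 ± 0.15 that did not pass the test. Cyp3a9, a 3A family P450, stood at -0.04 and Por, the electron donor of the P450 enzymes, at 0.20. The receptors themselves, reported for reference, were not called: Nr1i2, which encodes PXR, at -0.02 ± 0.13, Nr1i3, which encodes CAR, at 0.86 ± 0.49 from a level of 0.492 to 3.10 CPM (0.53 with control dam 2130 left out, 0.43 with dam 2139 left out), and Ppara at 0.06 ± 0.33. Among 15 sensing receptors tested, 0 were called and the median was 0.12.

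**Figure D3:**
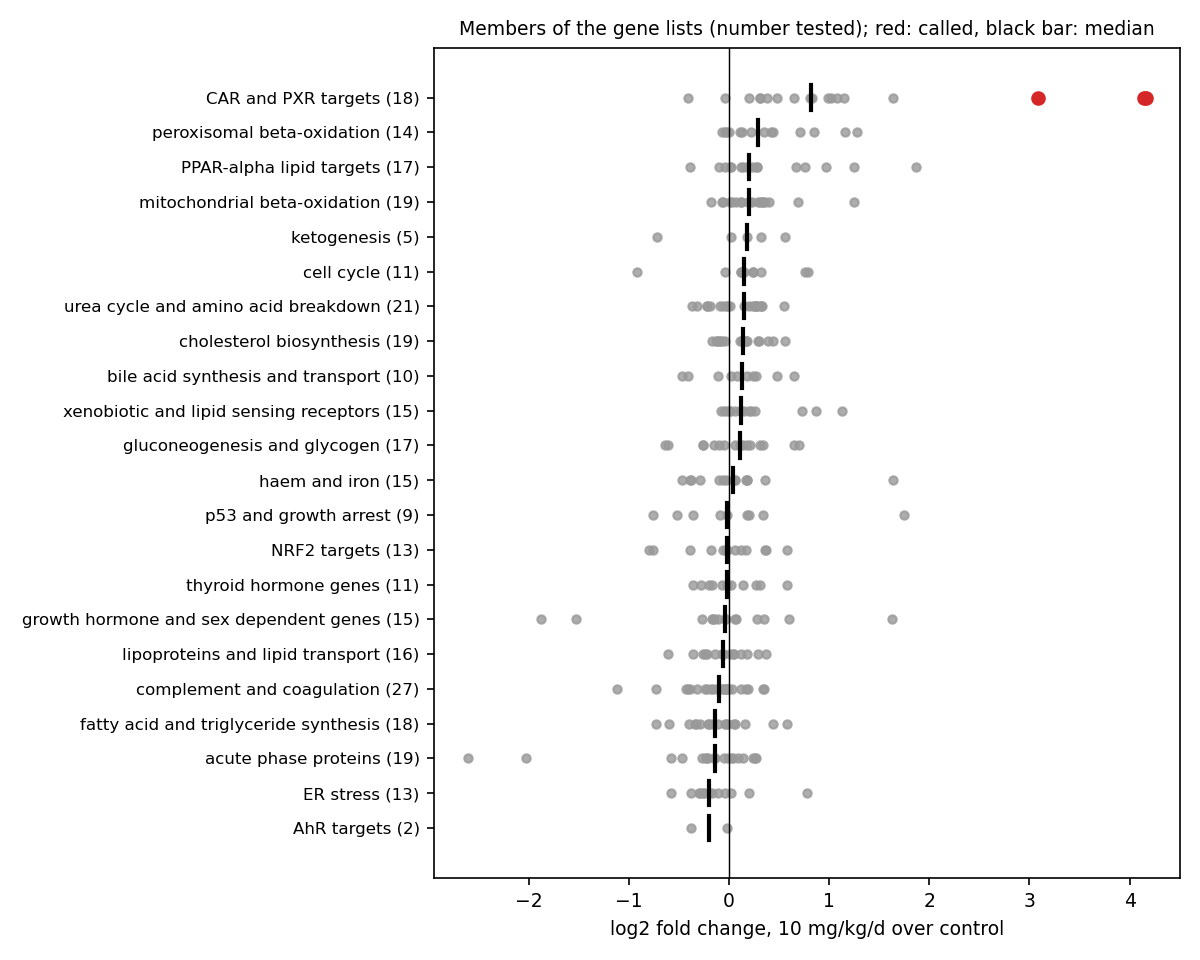
Log2 fold change (10 mg/kg/d over control) of each tested member of 22 gene lists, with the number tested in brackets and the median as a black bar. Called members, in red, are the 3 P450 genes of the CAR and PXR list, whose median was 0.82; the other 21 medians lie between -0.20 and 0.29.

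No gene of fatty acid oxidation was called, and most had positive values. The PPAR-alpha list had 17 members tested, 14 of them positive, with a median log2 fold change of 0.20 and 2 higher at an unadjusted p under 0.05. Peroxisomal beta-oxidation had 14 tested, 10 positive, a median of 0.29 and 5 higher at that p. Mitochondrial beta-oxidation had 19 tested, 16 positive, a median of 0.20 and 3 higher at that p. None of these lists had a member lower at that p. Over all genes tested, 1.88% were higher and 1.36% lower at that p, and 4612 of 9238 had positive values. These lists too were drawn up with earlier results of these samples known.

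Cyp4a1, the fatty acid omega-hydroxylase, measured 90.1, 110 and 142 CPM in controls and 145, 274 and 191 CPM in treated dams. The groups only just failed to overlap, and the change of 0.76 ± 0.26 did not pass the test. Ehhadh, the peroxisomal bifunctional enzyme, measured 33.0, 41.3 and 67.9 CPM against 90.5, 52.1 and 99.7 CPM (0.71 ± 0.29), and dam 2139 lay within the control range. Acot1, a cytosolic acyl-CoA thioesterase, was at 0, 0 and 6.42 CPM in controls and 12.6, 0.516 and 12.1 CPM in treated dams, with dam 2139 below the highest control. Its interval, -0.27 to 3.99, was the widest among the genes that the rule named whatever their values. Without control dam 2131 the fitted value was 8.53, against 2 controls at 0, and is no bound. Its relatives Acot2 (1.25 ± 0.41, and 1.97 without dam 2131) and Acot4 (1.16 ± 0.40), thioesterases of mitochondria and peroxisomes, overlapped between groups, as did Ech1, a dienoyl-CoA isomerase (1.28 ± 0.66), and none was called.

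Vnn1, a pantetheinase of coenzyme A recycling, overlapped between groups, at 15.3 to 70.9 CPM in controls and 42.3 to 105 CPM in treated dams (0.97 ± 0.56, with 0.61 without control dam 2130 and 1.91 without control dam 2131). Pdk4, which restrains glucose oxidation, stood at 0.67 ± 0.38, and Cpt1a, the gate of mitochondrial fatty acid import, at 0.34 ± 0.34, ranging from 0.09 without control dam 2130 to 0.76 without control dam 2131. Fabp1, the liver fatty acid binding protein, measured 4802 to 5497 CPM in controls and 5576 to 7139 CPM in treated dams (0.24 ± 0.23). Crat, named after its values were seen and encoding the peroxisomal and mitochondrial carnitine acetyltransferase, measured 122, 137 and 227 CPM against 282, 277 and 354 CPM (0.85 ± 0.25). It did not pass the test. Control dam 2131 was the highest control for Cyp4a1, Ehhadh, Acot1, Acot2, Acot4, Vnn1, Pdk4, Cpt1a, Fabp1 and Crat. With each library left out in turn, Ehhadh ranged from 0.51 to 1.04, Acot4 from 0.87 to 1.69 and Crat from 0.68 to 1.15.

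**Figure D4:**
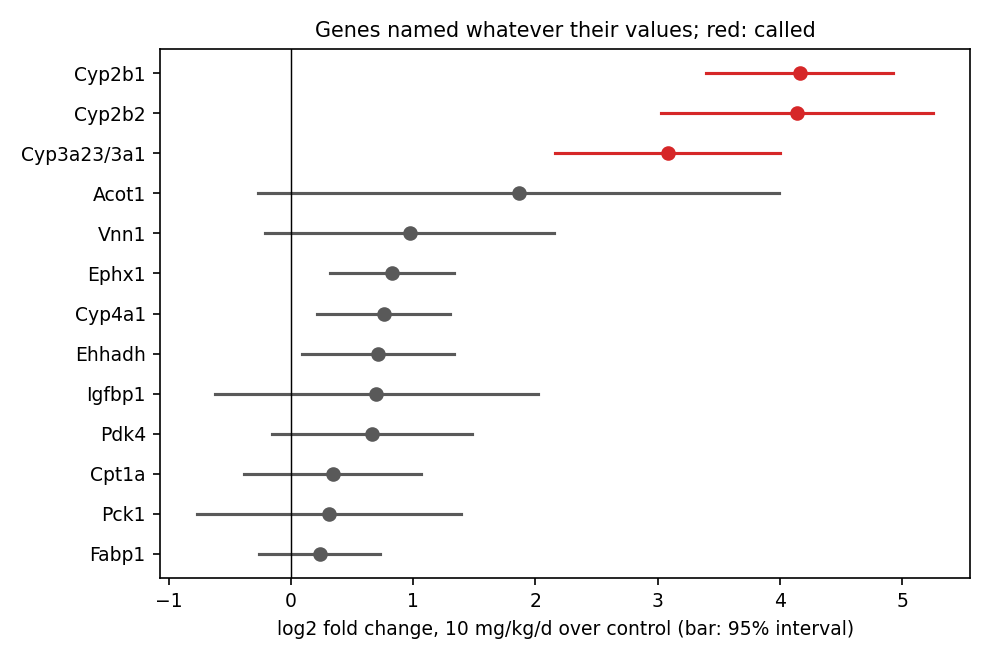
Log2 fold change (10 mg/kg/d over control) with its 95% interval for 13 genes reported whatever their values. Cyp2b1, Cyp2b2 and Cyp3a23/3a1, in red, were called; the intervals of Ephx1, Cyp4a1 and Ehhadh lie above 0 without an adjusted call, and those of the other 7 include 0.

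Fasting and glucose genes varied widely among dams of the same group. Pck1, the gluconeogenic carboxykinase, measured 398, 289 and 1169 CPM in controls and 1262, 586 and 485 CPM in treated dams, and the ranges overlapped widely (0.31 ± 0.51). Igfbp1, an insulin-responsive binding protein, measured 43.8, 22.3 and 47.5 CPM against 45.5, 60.8 and 87.6 CPM (0.70 ± 0.62, with 0.44 without dam 2130 and 0.46 without dam 2140).

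Other liver programmes had no called gene, in a comparison that called 0.0541% of genes. Medians of their log2 fold changes were -0.14 for 18 genes of fatty acid and triglyceride synthesis, 0.14 for 19 of cholesterol synthesis, -0.06 for 16 of lipoproteins, 0.13 for 10 of bile acids and 0.11 for 17 of gluconeogenesis and glycogen. The 2 tested targets of the aryl hydrocarbon receptor stood at -0.38 (Cyp1a2) and -0.02 (Nqo1). For 13 NRF2 targets of oxidative stress the median was -0.02, for 13 genes of ER stress -0.20, for 9 p53 genes -0.02, for 11 cell cycle genes 0.15 and for 11 thyroid hormone genes -0.02. Within the growth hormone list of 15 genes, the male-typical Cyp2c11 stood at 1.63 ± 0.52, from 0.785 to 2.46 CPM in controls to 2.75 to 6.82 CPM in treated dams, and the flavin monooxygenase Fmo1 at -1.52 ± 0.70. Both were named after their values were seen.

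Several acute phase and complement genes, named after their values were seen, had negative values. Those of Orm1, Lcn2, C4b and Kng1 rested largely or partly on control dam 2130. Orm1, the acute phase glycoprotein orosomucoid, measured 677, 8381 and 304 CPM in controls and 455, 533 and 663 CPM in treated dams. Its log2 fold change was -2.60 ± 0.83 with dam 2130 and 0.11 ± 0.41 without it. Lcn2, the iron-trapping lipocalin, measured 9.42, 58.2 and 22.1 CPM against 9.21, 5.16 and 8.81 CPM, and went from -2.03 to -1.07 without that dam. C4b, a complement component, went from -1.12 to -0.10 and Kng1, the kininogen that took 126500 CPM in dam 2130 and 44300 to 68470 CPM in the other 5 libraries, from -0.73 to -0.22. The macrophage receptor Marco, at 282 CPM in dam 2130 and 115 to 174 CPM elsewhere, went from -0.60 to -0.28. Summed macrophage markers were also highest in dam 2130, at 1170 CPM, and their part in these values was not tested. Of 27 complement and coagulation genes tested, 4 were lower and 1 higher at an unadjusted p under 0.05 by edgeR. Among the lower were C1s (-0.41 ± 0.15) and C1r (-0.425 ± 0.18), with every treated dam below every control. With each library left out in turn they ranged from -0.52 to -0.25 and from -0.51 to -0.27. None of the genes named in this paragraph was called with or without dam 2130. Leaving that dam out gave 5 called genes, 4 of them among the 5 called with all libraries, with Cyp3a23/3a1 lost and Mt-cyb gained.

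In a single fit of all 15 libraries the step from 3 to 10 mg/kg/d could be set beside that from 10 to 30. Cyp2b1 measured 72.1, 63.5 and 83.2 CPM at 3 mg/kg/d and was higher at 10 by a log2 fold change of 2.48 ± 0.33 (adjusted p 0.0129). It was the 1 gene called for that step of 9238 (0.0108%), where 333 genes (3.6%) had an unadjusted p under 0.05 and DESeq2 called 6. That call ended without treated dam 2139 and without any 1 of dams 2135, 2136 and 2137 at 3 mg/kg/d. AABR07035374.1, at 63.9 to 76.7 CPM, followed with 2.14 ± 0.34 (adjusted p 0.0518). Cyp3a23/3a1, at 296 to 325 CPM, had 2.28 ± 0.42, Dhrs7l1, at 6.20 to 40.7 CPM, 1.97 ± 0.49 and Cyp2b2, at 125 to 180 CPM, 1.72 ± 0.47. None of these 4 passed edgeR's test. In each, every dam at 10 mg/kg/d was above every dam at 3, but the genes were picked for high values in those 10 mg/kg/d dams. That ordering is no further support, and its share over all genes was not counted. DESeq2's calls for this step held AABR07035374.1 and Cyp3a23/3a1, besides Cyp2b1 and Aldh1a1.

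The 1 mg/kg/d dams had Cyp2b1 at 67.8, 40.7 and 51.1 CPM, all above the 3 controls. Dhrs7l1 did not follow the order of doses, with 83.8, 35.6 and 28.9 CPM at 1 mg/kg/d, overlapping the 3 mg/kg/d dams. Cyp3a23/3a1 at 1 mg/kg/d, with 98.7, 209 and 208 CPM, overlapped the controls.

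From 10 to 30 mg/kg/d, 0 genes were called by edgeR, 480 (5.2%) had an unadjusted p under 0.05, and DESeq2 called 16. At 30 mg/kg/d Cyp2b1 measured 544, 1648 and 1582 CPM, Cyp2b2 737, 1910 and 1758 CPM and Cyp3a23/3a1 1589, 5931 and 4836 CPM in dams 2141, 2142 and 2143. Dam 2141 was the lowest in each, and for Cyp3a23/3a1 it lay below treated dam 2138 at 10 mg/kg/d. Without dam 2141 edgeR's count was 11, Cyp2b1 and Cyp3a23/3a1 among them. DESeq2's calls on all 15 libraries held Cyp2b1 and AABR07035374.1 and left out Cyp2b2, Cyp3a23/3a1 and Dhrs7l1. Cyp2b1 changed by 1.75 ± 0.32 over this step (95% interval 1.07 to 2.42).

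For Ehhadh and Cyp4a1 the fitted step from 10 to 30 mg/kg/d was the larger in value. Ehhadh had the smallest p of this step, with 174, 336 and 288 CPM at 30 mg/kg/d and a change of 1.74 ± 0.29 (adjusted p 0.143), beside 0.72 ± 0.29 from 3 to 10. Cyp4a1 had 429, 489 and 634 CPM at 30 mg/kg/d and a change of 1.38 ± 0.26 (adjusted p 0.143), beside 0.69 ± 0.26. Aldh1a1 had 1.24 ± 0.23 and 1.15 ± 0.23 for the same steps, and Ephx1 1.25 ± 0.24 and 0.68 ± 0.24. From 10 to 30 DESeq2 called Cyp4a1, Aldh1a1 and Ephx1 but not Ehhadh, and from 3 to 10 it called Aldh1a1 alone of these 4. Whether one step is larger than the other was not tested, and both share the 10 mg/kg/d dams.

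**Figure D5:**
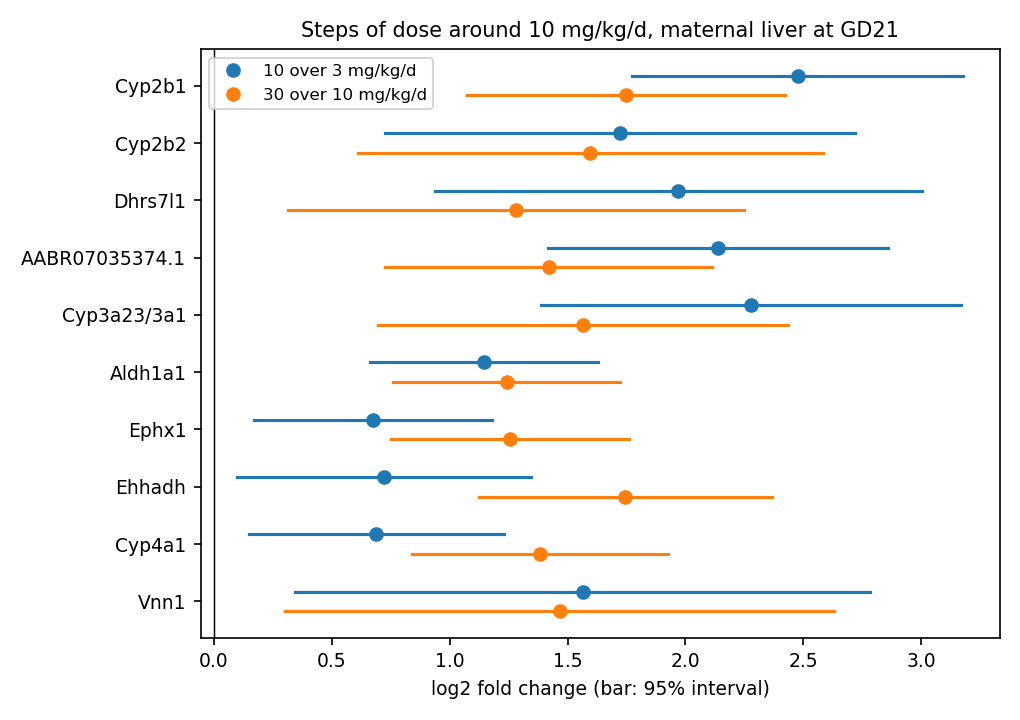
Log2 fold change with its 95% interval for the step from 3 to 10 mg/kg/d (blue) and from 10 to 30 mg/kg/d (orange), in maternal liver at GD21. Cyp2b1 from 3 to 10, at 2.48, was the 1 value edgeR called; the other intervals drawn lie above 0 without a call by edgeR, and DESeq2 called several of them.

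The same dose at GD18 gave a response that was not shown to differ. At GD18 Cyp2b1 ranged from 3.17 to 63.0 CPM in the 6 controls and from 107 to 328 CPM in the 4 treated dams, without overlap. Cyp3a23/3a1 ranged from 92.5 to 172 CPM in controls and from 300.1 to 1719 CPM in treated dams. Dhrs7l1 ranged from 9.32 to 38.8 CPM and from 45.3 to 146 CPM, with higher controls than at GD21. The genes compared here were picked for their rise at GD21, which is itself part of the difference. That choice favours larger values at GD21, so the sign of a difference is not independent evidence. In fitted value the GD21 response exceeded that at GD18 by a log2 difference of 1.19 ± 0.67 for Cyp2b1 (95% interval -0.20 to 2.59), 0.87 ± 0.59 for Cyp3a23/3a1, 1.19 ± 0.61 for AABR07035374.1 and 1.52 ± 0.59 for Dhrs7l1. For Cyp2b2 the difference was -1.16 ± 0.94, with a GD18 log2 fold change of 5.30 ± 0.63. Its GD18 level was 0.283, 2.00 and 0.119 CPM in control dams 2069, 2070 and 2071. In control dams 2114, 2115 and 2116, of another study block, it was 10.3, 22.2 and 23.1 CPM. The 4 treated dams, drawn from both blocks, ranged from 106 to 400 CPM. Whether the low level in some GD18 controls made the Cyp2b2 difference negative was not tested. Of 12223 genes tested for a difference in response between the ages, 0 were called by edgeR, 521 (4.26%) had an unadjusted p under 0.05, and DESeq2 called 1. Age, first day of dosing and study block cannot be told apart in this test.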

How the data were processed

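Liver RNA was measured by TempO-Seq with single reads of 50 bases, per the labels' protocols, which also say that the most plentiful transcripts were attenuated alike in every library. Levels of such genes cannot be set against others. The authors deposited estimated counts, not normalised, for 20833 genes. In these 6 libraries 5.99% of them were not whole. Why they were not, and whether reads were divided between near copies, is not given in the sources used here. The submitters' processing notes name STAR 2.7.3a, Partek and rn6. The authors also deposited log2 values of CPM, which were not used here.

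The design had assumed whole counts, so estimated counts were rounded. They were fitted with edgeR 4.0.16 (R 4.3.3, filterByExpr, TMM, two-sided quasi-likelihood F tests) over all 15 maternal GD21 libraries, with dose as a factor of 5 levels. The SE was computed from the log2 fold change and F, with a prior count of 0.125 for fold changes. P-values were adjusted by Benjamini-Hochberg over all genes tested, at a threshold of 0.05. Ages were compared by an interaction over 16 libraries with study block as a term. Each library is a separate dam, so p-values measure the spread between dams. Chi-square per degree of freedom between libraries of a group was 13.6 to 20.8 in treated and 39.2 to 57.6 in control dams over genes with an expected count of at least 5. For genes of fewer counts, depth limits the precision as well. Scripts were tested on simulated data.

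Named genes were the called genes of largest change, the 10 of smallest p, 13 chosen whatever their values, and the called genes of each list and of the other comparisons; any other gene was named after its values were seen. The 31 lists held 544 entries, 511 different genes, of which 442 are in the table and 361 were tested. Members, lists and rules were chosen with earlier results of these data known. Alternatives were RLE factors, no filter, DESeq2 1.42.0, the 6 libraries alone, no block term and each library left out in turn. DESeq2 was run without filterByExpr, so its gene set differed from edgeR's as well. Promoters came from RefSeq, build GRCr8, matched by symbol.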

Additional observations from a re-analysis of the deposited data

Results flagged for a closer look

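Dam 2125, treated with 10 mg/kg/d and sampled at GD18, stood apart from the other 3 treated dams of that age in both transcripts of the Cyp3a locus. Cyp3a23/3a1 was at 1719 CPM in it and at 300.1 to 389 CPM in the others, and AABR07035374.1 at 352 CPM against 56.3 to 77.3 CPM. In each case the gap to the next dam was over 0.9 of the group's whole range, 0.937 and 0.929. The 5 called genes were each examined in the 2 GD18 groups. Chance marks about 1 group in 20 if values are normally spread, which was not checked for these CPM. Both marks here come from 1 dam and 1 locus, so they may not be separate.

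In fetal libraries of the same dams, outside the maternal comparison, Cyp2b1 was at 9.81, 6.38 and 1.83 CPM in the fetal livers of dams 2138, 2139 and 2140, all above the fetal controls at 1.51, 0.780 and 0.776 CPM. The lowest treated library held 6.37 estimated counts and the highest control 9.44, so their order rests on few counts, and the difference was not tested. Among the 5 genes called in the dams, it was the 1 gene with all treated fetal libraries above all fetal controls. The share of all genes ordered this way in the fetal libraries was not counted, so 1 of 5 has no background beside it.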

How the results depend on the processing

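No paired analysis was possible because control and treated dams share no number and each dam gave 1 maternal library. With RLE factors the same 5 genes were called for 10 mg/kg/d against control, 0 from 10 to 30, 1 from 3 to 10 and 0 for the ages. Without the filter on low counts 62 genes were called (37 higher, 25 lower), 112 from 10 to 30 and 76 from 3 to 10; the cause was not tested. The 62 held the 5 genes and, of those described as not called, Acot1, Acot2, Acot4, Alas1, Aldh1a1, Abhd3, Armc4, C4b, Crat, Cyp2c11, Cyp2c6v1, Cyp2d5, Cyp4a1, Ephx1, Fmo1, Gsta5, Lcn2, LOC100910577, Nfs1, Orm1, Slco1a4 and Vnn1. DESeq2 called 7, 16, 6 and, for the ages, 1 (Nfs1); the cause was not tested. The 6 libraries alone gave 6 calls, with 1 lower, Armc4, at -0.99 and not called in the fit of 15 libraries. Leaving out each library in turn gave 3 to 6 calls, of which 3 to 5 higher and 0 to 1 lower, 0 to 11 from 10 to 30, 0 to 2 from 3 to 10 and 0 in each fit for the ages. There were 3 calls without control dam 2129 and 3 without 2131, and 6 without treated dam 2138, which added Serping1 as lower. Serping1, a complement inhibitor, measured 214, 256 and 229 CPM in controls and 259, 21.0 and 17.1 CPM in treated dams. The single call from 3 to 10 became 0 without treated dam 2139 or without any 1 of the 3 dams at 3 mg/kg/d, and 2 without dam 2138. From 10 to 30 there was 1 call without dam 2138 and 11 without dam 2141. Cyp2b1, Cyp2b2 and AABR07035374.1 were called in all 6 such fits, with log2 fold changes of 4.07 to 4.27 for Cyp2b1 and 3.77 to 4.53 for Cyp2b2. Of 318 values of 53 named genes in those fits, 305 kept direction and call, 6 lost the call and 7 changed sign: Pck1 ranged from -0.30 to 1.14 (-0.02 without dam 2130), Orm1 from -3.15 to 0.11, Nr1i2 from -0.068 to 0.071 (0.036 without dam 2139) and Ppara from -0.21 to 0.20 (-0.02 without dam 2131). Of 210 values under the other settings, 191 kept direction and call and 19 gained a call. Orderings of libraries under TMM-scaled sizes, chosen after seeing the data, gave 499 genes above and 453 below all controls in place of 723 and 248.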

Other observations

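In the fetal livers of the same dams the other called genes stayed low. Cyp3a23/3a1 measured 5.37, 4.77 and 1.72 CPM in fetuses of treated dams 2138, 2139 and 2140 and 2.33, 3.43 and 0.512 CPM in those of control dams 2129, 2130 and 2131. Cyp2b2 measured 0.557, 0.000998 and 5.85 CPM against 0.00487, 2.50 and 2.49 CPM, and Dhrs7l1 0, 1.00 and 0.573 CPM against 1.44, 0 and 0.682 CPM. AABR07035374.1 measured 6.48, 5.27 and 5.45 CPM against 0.709, 6.29 and 1.88 CPM. The groups overlapped in all 4 genes.

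Of the other genes with the smallest p in the dams, 4 had adjusted p of 0.644 and were not called. Hey1, a repressor downstream of Notch, measured 0.393, 0.656 and 0.481 CPM in controls and 2.05, 3.10 and 2.94 CPM in treated dams. Trmt13, a tRNA methyltransferase, measured 1.18, 0.492 and 1.28 CPM against 2.90, 2.93 and 3.28 CPM. Gcnt2, a glycan-branching enzyme, measured 22.8, 17.6 and 26.1 CPM against 13.3, 13.6 and 12.1 CPM. LOC100910577 measured 2.16, 2.30 and 3.05 CPM against 0, 0.344 and 0.691 CPM. The groups did not overlap in any of the 4, which were picked for small p in this same comparison, so the separation is no further support. Over all genes tested, 7.83% lay above all controls and 2.68% below. At 30 mg/kg/d Hey1 measured 0.584 to 1.82 CPM, Trmt13 1.56 to 2.31, Gcnt2 9.75 to 11.55 and LOC100910577 1.08 to 2.34 CPM. Armc4, an armadillo repeat gene of motile cilia singled out after its values were seen, measured 30.8, 28.04 and 31.9 CPM in controls and 15.7, 16 and 16.1 CPM in treated dams (-0.99 ± 0.37, adjusted p 1.0).

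Neutrophil markers summed to 13.6 to 19.2 CPM in controls and 8.43 to 13.7 CPM in treated dams, with the granule gene S100a9 at -0.70 ± 0.26, not called. Erythroid markers summed to 678 to 1580 CPM in controls and 985 to 1620 CPM in treated dams. Bile duct markers summed to 9.42 to 17.4 and 9.55 to 12.3 CPM, endothelial markers to 437 to 471 and 397 to 476 CPM, and stellate and fibroblast markers to 299 to 361 and 276 to 472 CPM. T and NK cell markers summed to 41.0 to 64.0 and 46.0 to 65.5 CPM, and B and plasma cell markers to 8.63 to 12.0 and 6.54 to 19.1 CPM. Of 21 urea cycle and amino acid genes, 19 acute phase genes, 27 complement and coagulation genes and 15 haem and iron genes, none was called, with median log2 fold changes of 0.15, -0.14, -0.10 and 0.04. Ketogenesis, with 5 genes tested, had a median of 0.18 and no call, and Acat1, its acetyl-CoA thiolase, measured 1228, 967 and 1145 CPM in controls and 1902, 1431 and 1789 CPM in treated dams (0.56 ± 0.18).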
